A study of Mus musculus with 23 samples.

Results

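Matrix metalloproteinases (MMPs) are zinc-dependent enzymes that cut proteins of the extracellular matrix and of the cell surface, and tissue inhibitors of metalloproteinases (TIMPs) bind and block them. The transcripts described are those of 6 MMPs (Mmp2, Mmp14, Mmp15, Mmp16, Mmp17 and Mmp24) and 3 inhibitors (Timp2, Timp3 and Timp4), 9 of the 55487 genes counted. They were chosen by name from the gene family and for their read counts in the 4 groups of libraries. The lower Mmp17 level in stretched soma libraries was part of that choice. The stretched against control soma values below are therefore a description with no test for these 9 genes.

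The series profiled RNA of hippocampal neurons taken from C57Bl/6 mice on postnatal day 1 and kept in XONA chambers, where axons cross into a separate compartment. Every culture, stretched or not, was given medium with magnetic nanoparticles (MNPs, 5 µg/ml). Stretched cultures stood in a magnetic gradient of 50 T/m between DIV 1 and DIV 6 (days in vitro), whereas control cultures had a null gradient. The 23 libraries were 6 each of control somata, stretched somata and stretched axons, and 5 of control axons. The labels call the axonal material a pure axonal preparation, and the soma side was a mixed culture seeded from whole dissociated hippocampi. The labels do not say how many pups or cultures stand behind a library, so p-values measure the spread between these libraries, which may be technical.

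Mmp2 is a secreted gelatinase. Mmp14, Mmp15, Mmp16 and Mmp24 are anchored in the membrane by a transmembrane segment, and Mmp17 by a glycolipid (GPI) anchor. Mmp14 activates pro-Mmp2 at the cell surface in a complex that also holds Timp2, so Timp2 serves both as an inhibitor and as a partner of activation. Timp3 binds to the matrix and also inhibits several ADAM and ADAMTS proteases, which are relatives of the MMPs. In brain tissue MMPs are known for remodelling of the matrix around growing neurites and synapses.

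Each MMP coding sequence contains the zinc-binding motif of the catalytic site. It is shown here because it is the feature that defines the enzymes, and the capitals mark the codons of the 3 histidines that hold the zinc ion. The sequences are read 5′ to 3′ from the GENCODE vM21 transcripts.
Mmp2: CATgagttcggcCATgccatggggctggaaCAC
Mmp14: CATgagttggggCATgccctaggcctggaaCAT
Mmp15: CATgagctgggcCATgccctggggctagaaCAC
Mmp16: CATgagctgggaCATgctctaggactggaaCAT
Mmp17: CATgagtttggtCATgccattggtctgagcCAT
Mmp24: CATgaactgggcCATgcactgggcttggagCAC
Over these 33 bases Mmp17 was identical to the other 5 at 20 to 25 positions. The other 5 were identical to each other at 25 to 29 positions. The Mmp17 stretch lies in exon 5 of 10 at chr5:129596597-129596629 on the plus strand of mm10 (GRCm38), and the Mmp2 stretch in exon 8 of 13 at chr8:92839279-92839311, also on the plus strand.

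The start of the mature TIMP protein is shown because its first cysteine enters the active site of the protease. The capitals mark the codons of the first and the third residue, both cysteines.
Timp2: TGCagcTGCtccccggtgcacccgcaa
Timp3: TGCacaTGCtctcccagccatccccag
Timp4: TGCagcTGTgcgcctgcgcacccccag
Timp2 and Timp4 shared 20 of these 27 bases, and Timp3 shared 17 with either. No stretch of 50 bases was shared by the transcripts of any of the 36 pairs of the 9 genes.

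The library totals ranged from 16369153 to 43048953 counts, and levels are given as CPM, the usual scaling of a count to the total of its library. A count of 3, taken as the floor, stood for 0.0697 to 0.183 CPM, which covers counting error only because amplified reads are not independent molecules. Soma libraries contained 22452 to 24575 genes with at least 1 count and axonal libraries 4263 to 10242. The soma libraries fell into 6 with a high level of the Y-linked transcript Eif2s3y (24.7 to 28.7 CPM) and 6 with a low level (5.39 to 13.2 CPM), and each kind held 3 control and 3 stretched libraries. Summed astrocyte markers were 10975 to 14367 CPM in the first kind and 5276 to 6528 CPM in the second. Control soma replicate 4 stood apart from the other controls and is treated below. In a bulk library, fewer cells of a type and less RNA per cell cannot be told apart.

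All 9 genes had counts in all 12 soma libraries. Their levels were compared with each other per kb of exon, since longer transcripts collect more reads. In control somata Timp2 stood highest at 21.4 ± 5.41 CPM per kb (SD, n = 6). Timp3 followed at 17.7 ± 2.62 and Mmp16 at 12.3 ± 2.35 CPM per kb (SD, n = 6 each). Mmp2 held 6.94 ± 1.94 CPM per kb, and Mmp24, Mmp15, Mmp17 and Timp4 lay between 3.91 and 2.91 CPM per kb. Mmp14 was lowest at 1.97 ± 1.02 CPM per kb (SD, n = 6). Going down this order, neighbours differed by more than the sum of their SDs at 3 steps, from Timp3 to Mmp16, from Mmp16 to Mmp2 and from Mmp2 to Mmp24. Timp2 and Timp3 did not differ beyond their spread, and neither did neighbours among the 5 lowest genes.

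In stretched somata the order was different at the top and at the bottom. Timp3 was highest at 22.4 ± 2.25 CPM per kb, and Mmp16 and Timp2 followed with means of 15.2 and 14.9 CPM per kb (n = 6 each). Mmp17 was at 1.53 ± 0.225 CPM per kb, below Timp4 at 2.35 ± 0.231 CPM per kb by more than the sum of their SDs and in 6 of 6 libraries. Mmp14 remained lowest at 0.951 ± 0.662 CPM per kb (SD, n = 6).

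**Figure D1:**
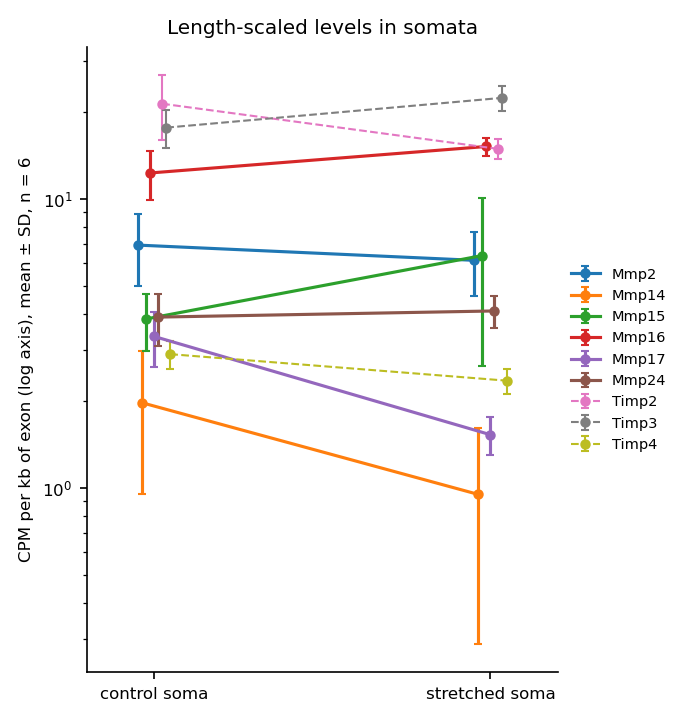
Mean level of each gene per kb of exon (vertical log axis, CPM per kb) in control and stretched soma libraries, with SD as bars (n = 6 each), solid lines for MMPs and dashed lines for TIMPs. Timp2 went from 21.4 to 14.9 and Timp3 from 17.7 to 22.4 CPM per kb, so that their lines cross, and Mmp17 went from 3.35 to 1.53 CPM per kb.

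Among the membrane-anchored enzymes, Mmp17 (ENSMUSG00000029436, chr5:129584169-129611099, plus strand) was the gene whose level entered the choice. Its level in control somata was 26.7, 20.4, 20.2, 14.4, 25.8 and 25.6 CPM in replicates 1 to 6. In stretched somata it was 8.24, 8.47, 9.98, 11.6, 11.0 and 11.4 CPM in replicates 1, 2, 4, 5, 6 and 8. Every stretched library was below every control library, and the lowest control was replicate 4. The means were 22.2 ± 4.74 and 10.1 ± 1.49 CPM (SD, n = 6 each), a ratio of 0.457, and the fitted log2 fold change was -1.17 (SE 0.16). Leaving out each library in turn gave log2 fold changes of -1.29 to -1.10. The raw counts behind these levels were 198 to 615 per library.

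The Mmp17 difference was of similar size in both kinds of soma library. In the libraries with high Eif2s3y the stretched to control ratio was 0.418, and in those with low Eif2s3y it was 0.497 (n = 3 and 3 in each). The lack of overlap within each kind follows from that over all soma libraries and adds nothing to it. Among controls, where the summed astrocyte markers differed between the 2 kinds, Mmp17 was at 22.4 ± 3.69 CPM in the first kind and 21.9 ± 6.51 CPM in the second (SD, n = 3 each).

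Mmp14 (ENSMUSG00000000957, chr14:54431612-54445364, plus strand), the transmembrane activator of pro-Mmp2, varied more. It was at 8.65, 14.7, 20.7, 4.05, 14.9 and 7.62 CPM in control replicates 1 to 6. It was at 3.91, 11.3, 2.79, 2.47, 3.43 and 10.1 CPM in stretched replicates 1, 2, 4, 5, 6 and 8. The groups overlapped, with 4 of 6 stretched libraries below every control and replicates 2 and 8 within the control range. The means were 11.8 ± 6.08 and 5.67 ± 3.95 CPM (SD, n = 6 each), and the log2 fold change was -1.10 (SE 0.45). The ratio was 0.574 in the high and 0.328 in the low Eif2s3y libraries.

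Mmp15 (ENSMUSG00000031790, chr8:95352268-95375080, plus strand), another transmembrane member, had its widest spread after stretch. Control replicates 1 to 6 were at 14.2, 27.3, 20.1, 19.2, 24.6 and 19.3 CPM. Stretched replicates 1, 2, 4, 5, 6 and 8 were at 27.4, 58.2, 15.4, 13.3, 33.4 and 59.0 CPM. Stretched replicates 2 and 8 were far above every control, and replicates 4 and 5 lay low in or below the control range. The log2 fold change was 0.68 (SE 0.34). The stretched to control ratio was 2.34 in the high Eif2s3y libraries and 0.985 in the low ones (n = 3 and 3 in each). The difference between these 2 ratios was not tested.

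Mmp16 (ENSMUSG00000028226, chr4:17852893-18119145, plus strand) was the most abundant MMP transcript. Control replicates 1 to 6 were at 87.0, 99.6, 87.5, 141, 114 and 112 CPM. Stretched replicates 1, 2, 4, 5, 6 and 8 were at 127, 123, 142, 134, 144 and 121 CPM. All stretched libraries were above every control except replicate 4, and the log2 fold change was 0.27 (SE 0.11).

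Smaller differences were seen for the remaining MMPs. Mmp24 (ENSMUSG00000027612, chr2:155775342-155818366, plus strand), known mainly from the nervous system, averaged 18.3 ± 3.72 CPM in control and 19.2 ± 2.38 CPM in stretched somata (SD, n = 6 each). Its log2 fold change was 0.03 (SE 0.14), and it ranged from 14.1 to 24.8 and from 16.1 to 23.2 CPM. Mmp2 (ENSMUSG00000031740, chr8:92827291-92853420, plus strand) averaged 23.4 ± 6.53 and 20.7 ± 5.18 CPM, with a log2 fold change of -0.22 (SE 0.19), and its ranges of 16.1 to 34.7 and 15.3 to 29.7 CPM overlapped. Among controls Mmp2 was at 28.0 ± 6.14 CPM in the high and 18.8 ± 2.29 CPM in the low Eif2s3y libraries (SD, n = 3 each), the same direction as the astrocyte markers, whose part in it was not tested.

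**Figure D2:**
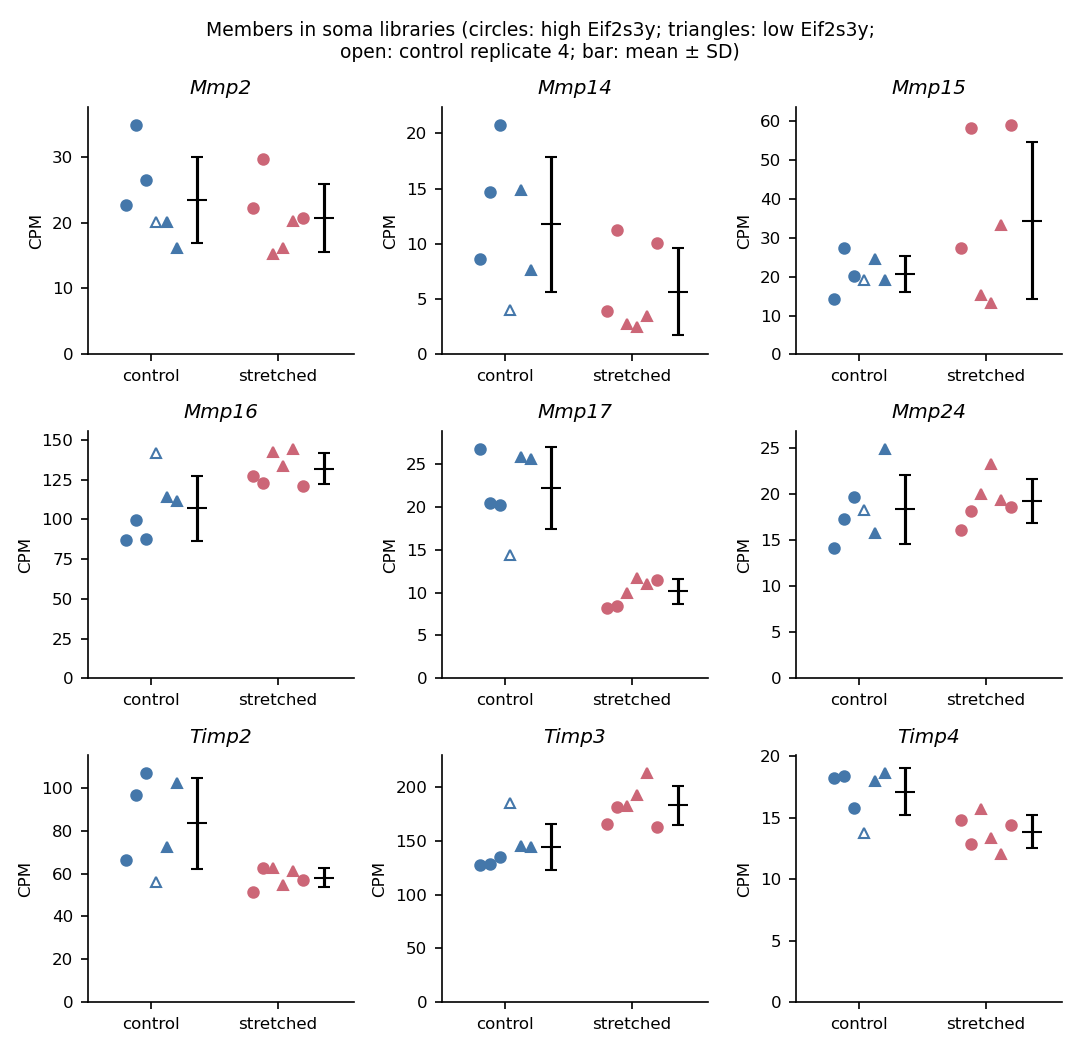
CPM of each gene (vertical axis from 0) in every soma library, with control libraries in blue and stretched in red, circles for high and triangles for low Eif2s3y, and control replicate 4 as an open symbol. The black bar is the group mean ± SD (n = 6). Mmp17 is the only gene of the 9 without overlap between the groups, at 14.4 to 26.7 against 8.24 to 11.6 CPM.

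Of the inhibitors, Timp2 (ENSMUSG00000017466, chr11:118301069-118355740, minus strand) was lower in most stretched libraries. Control replicates 1 to 6 were at 66.4, 96.7, 107, 56.1, 72.3 and 102 CPM. Stretched replicates 1, 2, 4, 5, 6 and 8 were at 51.4, 62.5, 62.6, 54.6, 61.1 and 56.8 CPM. The stretched values lay in a narrow band under all controls but replicate 4, and the log2 fold change was -0.56 (SE 0.14). Timp3 (ENSMUSG00000020044, chr10:86300372-86349506, plus strand) went the other way. It was at 128, 128, 135, 185, 145 and 144 CPM in control replicates 1 to 6. In stretched replicates 1, 2, 4, 5, 6 and 8 it was at 166, 181, 182, 193, 212 and 163 CPM. All stretched libraries exceeded all controls but replicate 4, and the log2 fold change was 0.30 (SE 0.10). Of the Timp3 exon bases, 1733 (21.3%) also lie in Syn3 on the other strand, which averaged 16.0 CPM in somata.

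Timp4 (ENSMUSG00000030317, chr6:115241892-115252205, minus strand) was at 18.2, 18.4, 15.8, 13.8, 18.0 and 18.6 CPM in control replicates 1 to 6. It was at 14.9, 12.8, 15.7, 13.3, 12.1 and 14.4 CPM in stretched replicates 1, 2, 4, 5, 6 and 8. The groups overlapped only through control replicate 4, and the log2 fold change was -0.35 (SE 0.12). The strand setting of the counting is not given in the sources used here, so reads of overlapping antisense genes may be included. Such overlaps were 637 exon bases (13.6%) for Mmp24 with BC029722 and 90 bases (1.53%) for Timp4 with Syn2.

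Control soma replicate 4 lay inside the stretched range for 8 of the 9 genes and inside the range of the other 5 controls for 3 of them. Without it, 5 of the 9 genes had no overlap between the groups, which were Mmp17, Timp2 and Timp4 on the lower side and Mmp16 and Timp3 on the higher side. Without that library 23.5% of all genes tested did not overlap, 9.53% on the lower and 14% on the higher side, and with it 4.11% did not overlap. Over all genes 25.1% had an edgeR adjusted p under 0.05 in this comparison, and so did 4 of the 9 (Mmp17, Timp2, Timp4 and Timp3). Since this contrast chose the genes, nothing is read from these counts. The median log2 fold change was -0.22 over the 9 genes and -0.03 over all 15632 genes tested.

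The make-up of each family was described by shares of its summed level per kb. The 6 MMPs summed to 32.3 ± 2.66 CPM per kb in control and 34.3 ± 4.59 in stretched somata (SD, n = 6 each). Mmp17 made up 10.5 ± 2.81% of the control sum and 4.54 ± 0.947% of the stretched sum. Mmp16 made up 38.2 ± 6.98% and 45.2 ± 8.07%, and Mmp15 11.8 ± 1.75% and 17.7 ± 8.37%. Within the TIMP sum, Timp2 held 50.4 ± 8.38% in control and 37.6 ± 2.03% in stretched somata. Timp3 held 42.6 ± 8.37% and 56.4 ± 2.46% (SD, n = 6 each). The ratio of the TIMP sum to the MMP sum averaged 1.30 in control and 1.17 in stretched somata, with ranges of 1.18 to 1.49 and 0.963 to 1.37 that overlapped (n = 6 each).

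The genes whose soma profile was most like that of Mmp17 were searched among 9284 genes that averaged 10 CPM or more. Likeness was the root mean square difference of centred log2 levels over the 12 soma libraries. The closest 5 were Fam98b at 0.198, Lsm2 at 0.208, Noc2l at 0.210, Btg1 at 0.219 and Cmc2 at 0.228. Noc2l, for example, averaged 16.3 ± 4.62 CPM in control and 6.22 ± 0.651 CPM in stretched somata (SD, n = 6 each). Within the family the closest were Timp2 at 0.414, in rank 965, and Timp4 at 0.433, in rank 1228. Mmp14 averaged less than 10 CPM and was not part of the search. These libraries share the stretch contrast that chose Mmp17, so the list is a description.

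Other genes of the same protease system, taken from lists of gene families, were tested in the same soma comparison with edgeR. None of the genes in these lists, cell type markers included, was called within the 6 low Eif2s3y libraries or in 1 fit over all 4 groups. The same held for all genes, with 0 of 15718 called in the former and 0 of 16113 in the latter. Nothing about the lists is read from it. Of 17 further MMPs, 8 passed the filter on low counts, and 2 of these fell while none rose. Mmp3, the secreted stromelysin, went from 46.9 ± 25.8 to 21.7 ± 3.56 CPM (SD, n = 6 each; log2 fold change -1.16, SE 0.36, edgeR adjusted p = 0.0333). Control libraries ranged from 12.2 to 73.6 CPM, so the groups overlapped. Mmp11 fell by 0.82 on the log2 scale (SE 0.27, edgeR adjusted p = 0.0364). Mmp3 passed in 5 of the 12 fits that left out 1 library, with edgeR adjusted p from 0.00696 to 0.0786, and Mmp11 also in 5. With an offset for exon length neither passed. Of 7 other inhibitors tested, Timp1 fell, from 10.9 ± 1.81 to 6.49 ± 1.42 CPM (SD, n = 6 each; log2 fold change -0.78, SE 0.17, edgeR adjusted p = 0.00779). The other 6 did not pass. Without control soma replicate 4, 2 of the inhibitors rose and 1 fell.

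ADAM proteases release the outer parts of membrane proteins. Of 10 tested, 5 rose, none fell and 5 did not pass, among them Adam8 at -0.11 (log2 fold change, named after its value was seen), and the median log2 fold change was 0.39 against -0.03 over all genes. Adam10, the main shedding enzyme of several neuronal surface proteins, went from 60.5 ± 20.6 to 120 ± 26.8 CPM (SD, n = 6 each; log2 fold change 0.95, SE 0.19, edgeR adjusted p = 0.00657). Adam9 rose by 0.85 on the log2 scale (SE 0.21, edgeR adjusted p = 0.0118) and Adam19 by 0.64 (SE 0.16, edgeR adjusted p = 0.0128). The other 2 that rose were Adam17 and Adam23, named after their values were seen. With the exon length offset 3 of the 10 rose, and without control soma replicate 4 it was 6. Within the low Eif2s3y libraries it was 0, as for all genes there. Adam10, Adam9 and Adam19 each passed in 12 of 12 fits that left out 1 library. Among genes overall 11.2% were called higher and 13.9% lower.

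Of 17 ADAMTS proteases tested, which are secreted and act on matrix proteoglycans, 2 rose and 1 fell. Adamts3 rose by 0.57 on the log2 scale (SE 0.18, edgeR adjusted p = 0.0279) and Adamts18 by 0.47 (SE 0.16, edgeR adjusted p = 0.0374). Adamts13, at 2.29 ± 0.695 and 1.37 ± 0.154 CPM (SD, n = 6 each), fell by 0.78 (SE 0.25, edgeR adjusted p = 0.0307). Of 12 genes for activation or uptake of the enzymes, Lrp1 rose and Bsg fell. Lrp1, an endocytic receptor that clears proteases and their complexes, rose by 0.44 (SE 0.12, edgeR adjusted p = 0.0185). Bsg, a surface protein known as an inducer of MMPs, fell by 0.24 (SE 0.08, edgeR adjusted p = 0.0293). Leaving out 1 library kept the call of Lrp1 in 12 of 12 fits, of Adamts3 in 6, of Adamts13 in 5 and of Adamts18 and Bsg in 3.

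Among 18 genes for proteins known as substrates, 5 rose and 1 fell. Ncan, a brain chondroitin sulfate proteoglycan, went from 865 ± 206 to 1358 ± 190 CPM (SD, n = 6 each; log2 fold change 0.61, SE 0.13, edgeR adjusted p = 0.00774). Dag1, the dystroglycan gene, rose by 0.65 (SE 0.19, edgeR adjusted p = 0.0279). Ncan passed in 12 and Dag1 in 6 of the 12 fits without 1 library.

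**Figure D3:**
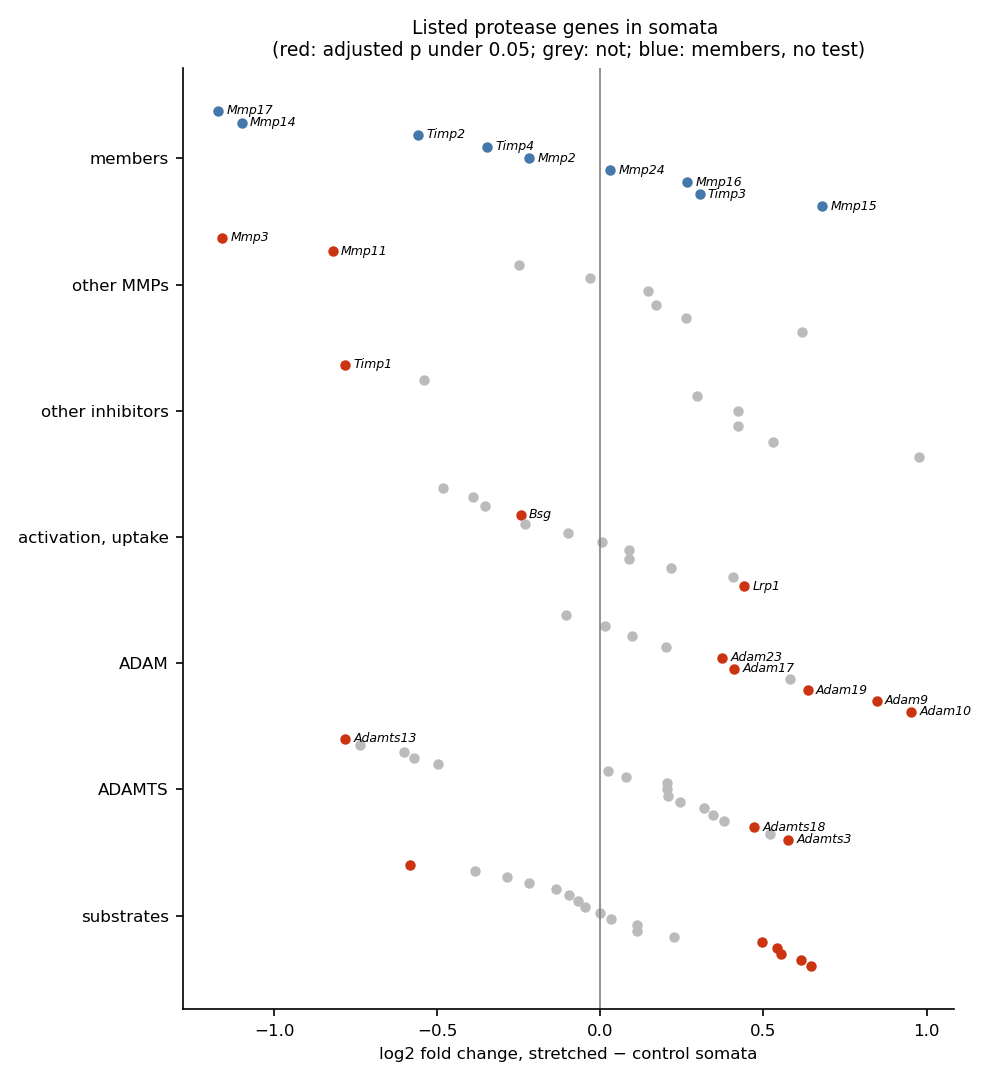
Log2 fold change, stretched minus control somata (horizontal axis), of each tested gene in the family lists, 1 point per gene and 1 block per list. Blue points are the 9 genes, shown with no test, red points had an edgeR adjusted p under 0.05 and grey points did not. The red ADAM points all lie to the right of 0, between Adam23 at 0.37 and Adam10 at 0.95.

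Markers of other cell types in the same soma libraries were as follows. All 6 neuronal markers had counts in all soma libraries, and their sum was 4398 to 5260 CPM in control and 4427 to 4930 CPM in stretched somata. Of the 6, Rbfox3 fell with a log2 change of -0.90 (SE 0.30, edgeR adjusted p = 0.0450) and Tubb3 with -0.27 (SE 0.09, edgeR adjusted p = 0.0402), and Syt1 rose by 0.36 (SE 0.11, edgeR adjusted p = 0.0218). Of 9 astrocyte markers none passed the test, and neither did any endothelial or oligodendrocyte precursor marker. Of 8 microglia markers tested 2 fell, C1qa with a log2 change of -1.35 (SE 0.22, edgeR adjusted p = 0.00313) and C1qb with -0.80 (SE 0.16, edgeR adjusted p = 0.00616). The microglial sum of 9 markers was 48.8 to 94.2 CPM in control and 36.3 to 50.2 CPM in stretched somata. The sum of 7 mural and fibroblast markers was 252 to 394 CPM in control somata, with the highest value in replicate 4, and 302 to 382 CPM in stretched somata. Of the 6 tested, Dcn fell with -0.83 (SE 0.23, edgeR adjusted p = 0.0191) and Rgs5 rose by 0.38 (SE 0.12, edgeR adjusted p = 0.0345). The oligodendrocyte gene Mog rose by 0.73 (SE 0.19, edgeR adjusted p = 0.0156). Of the 12 fits that left out 1 library, C1qa, C1qb and Mog each passed in 12 and Dcn in 11. Syt1 passed in 9, Rgs5 in 6, and Rbfox3 and Tubb3 in 3 each. All 9 microglial markers had counts in all 12 soma libraries. The part of these cells in the levels of the proteases and inhibitors was not tested.

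In the axonal libraries the 9 genes were present or absent library by library. Between 2 and 8 of the 9 had at least 1 count in an axonal library, and thinning all libraries to the smallest total left each number as it was. Of the 99 pairs of axonal library and gene, 49 had a count. Of these 43 had at least 100 counts and 4 had 1 to 4 counts, so a transcript was mostly either well counted or not seen. Genes with soma levels in the same range (8.72 to 163 CPM, 8531 genes) were detected at 23.5 to 72.8% per axonal library, with a median of 37.8%. For the 9 genes the share was 22.2 to 88.9%, with a median of 44.4%.

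The inhibitors were the members detected in most axonal libraries. Timp4 had counts in 4 of 5 control and 5 of 6 stretched axon libraries. It was at 131, 272, 83.5, 39.1 and 0 CPM in control replicates 1, 2, 3, 5 and 7. It was at 413, 197, 0, 98.4, 29.8 and 27.1 CPM in stretched replicates 1, 2, 4, 5, 6 and 8. In every library where it was detected it exceeded the highest soma value of its condition. The axonal means of 105 ± 105 (SD, n = 5) and 128 ± 157 CPM (SD, n = 6) compare with 17.1 and 13.9 CPM in somata. The log2 fold change of axon against soma was 2.27 (SE 1.34, edgeR adjusted p = 0.294) in control and 2.54 (SE 1.32, edgeR adjusted p = 0.236) in stretched cultures, and neither passed. Without control axon replicate 7 the first adjusted p from edgeR was 0.00719, and without stretched axon replicate 4 the second was 0.00666. Each of these is the library in which Timp4 had no counts.

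Timp3 was at 883, 695, 0, 0.0929 and 8.66 CPM in control axon replicates 1, 2, 3, 5 and 7. It was at 0, 0, 197, 331, 594 and 382 CPM in stretched axon replicates 1, 2, 4, 5, 6 and 8. Timp2 was at 211, 0, 124, 129 and 0.117 CPM in the control axon libraries. In the stretched ones it was at 12.1, 0, 0, 54.8, 15.7 and 99.2 CPM, in the same order of replicates. In each condition both inhibitors had axonal levels above and far below somata, for Timp2 in stretched axons above only in replicate 8. Their axon against soma log2 fold changes were between -1.28 and 0.74, with SEs of 1.55 to 1.73, and none passed.

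Of the MMPs, Mmp14 had counts in 3 of 5 control and 4 of 6 stretched axon libraries. It was at 0, 20.3, 108, 0 and 92.4 CPM in control replicates 1, 2, 3, 5 and 7. It was at 0, 255, 0, 0.0351, 8.96 and 15.4 CPM in stretched replicates 1, 2, 4, 5, 6 and 8, so the highest library stood far above the rest. Mmp2 had counts in 2 of 5 and 3 of 6, with 171 and 26.8 CPM in control replicates 3 and 5. In stretched replicates 1, 4 and 6 it had 256, 240 and 175 CPM. Mmp16, the most abundant MMP transcript of somata, had counts in 2 control and 2 stretched axon libraries. Those were 0.0441 and 111 CPM in control replicates 3 and 5 and 349 and 86.7 CPM in stretched replicates 6 and 8. Mmp17 likewise had counts in 2 libraries of each condition, at 4.02 and 237 CPM in control replicates 5 and 7. In stretched replicates 6 and 8 it was at 19.8 and 0.405 CPM. Its single high value exceeded every soma level, and 7 of the 11 axonal libraries had none.

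Against somata, none of these 4 enzymes passed in either condition. The log2 fold changes in control cultures were 1.67 (SE 1.76) for Mmp14, 0.60 (SE 2.04) for Mmp2, -2.30 (SE 2.31) for Mmp16 and 0.86 (SE 2.12) for Mmp17. In stretched cultures they were 2.46 (SE 2.02), 1.86 (SE 1.97), -1.19 (SE 2.20) and -1.95 (SE 1.95) in the same order. One library decided several of them. Without control axon replicate 5, Mmp16 was counted only in replicate 3 of the control axons, at 0.0441 CPM. It could then only come out lower, so no p is given. Leaving out stretched axon replicate 6 took Mmp17 to a log2 fold change of -7.18, with only the 0.405 CPM of replicate 8 remaining. No p is given there for the same reason. Without control axon replicate 7 the Mmp17 value turned to -4.49, with only the 4.02 CPM of replicate 5 remaining. Again no p is given.

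**Figure D4:**
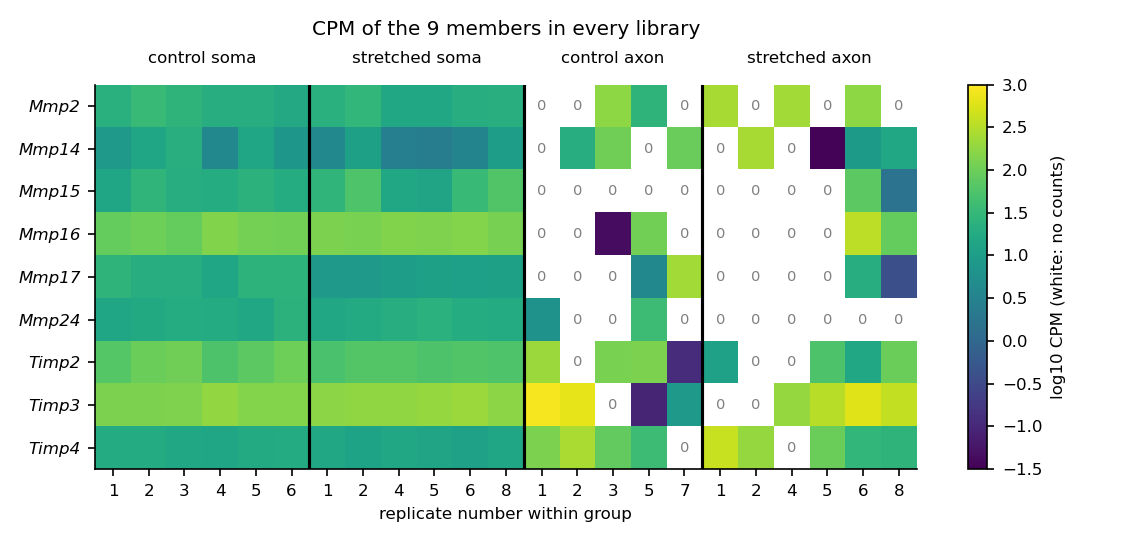
Level of the 9 genes (rows) in the 23 libraries (columns, by group and replicate number) as colour on a log10 scale of CPM, with white cells and a 0 where no read was counted. The soma blocks are filled, and 49 of the 99 axonal cells are filled, with Mmp15 empty in the 5 control and Mmp24 empty in the 6 stretched axon libraries.

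Mmp15 and Mmp24 each had no counts in the axons of 1 condition. Both passed the filter on low counts through somata alone there, so the direction of a test against somata was fixed and no p is given. Mmp15 had no counts in the 5 control axon libraries and 20.8 ± 4.62 CPM in control somata (SD, n = 6). It was thus at least 164-fold lower against the mean floor of 3 counts per axonal library. In stretched axons Mmp15 was at 73.1 and 1.62 CPM in replicates 6 and 8 and had no counts in the other 4. Its log2 fold change there was -1.82 (SE 2.18, edgeR adjusted p = 0.777). Without stretched axon replicate 6 it was -6.95, where only the counts of replicate 8 remained, so no p is given. Mmp24 had no counts in the 6 stretched axon libraries. Its 19.2 ± 2.38 CPM in stretched somata was 138 times the mean floor of those axonal libraries, likewise no bound. In control axons it was at 6.40 and 39.0 CPM in replicates 1 and 5 and had no counts in the other 3, and the axon against soma log2 change was -1.09 (SE 1.92, edgeR adjusted p = 0.838). Whether the axon against soma difference itself differed between conditions was not tested for these genes.

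These counts are set against the background. Over all genes 35.3% passed in the control comparison of axon and soma, 34.4% as lower and 0.856% as higher in axons. In the stretched comparison 29.3% passed, 28.4% as lower and 0.843% as higher. Of the 9 genes 1 was called in each, Mmp15 in control and Mmp24 in stretched cultures, the genes without axonal counts there, and nothing is read from these calls. Groups without overlap and with axons below were seen for 40.6% of genes in control and 34.6% in stretched cultures. All 9 are well counted in somata and passed the filter through them, so a gene missing from the axonal libraries could only come out lower. A listed gene outside the 9 with no axonal counts, such as Mmp11, Mmp19 or Adam11 in control axons, could also only come out lower. Nothing is thus read from the lower calls that follow. Of the other listed genes, 7 of 8 MMPs, 14 of 17 ADAMTS and 4 of 10 ADAM genes were lower in control axons. In stretched axons 3 of 7, 9 of 17 and 1 of 10 were lower, and no gene of these 3 lists was higher in either comparison. Of 18 substrate genes, 2 were higher and 3 lower in control axons, and 0 were higher and 3 lower in stretched axons. Of 12 genes for activation or uptake, 0 were higher and 4 lower in control axons. In stretched axons 1 of these 12, Serpine2, was higher (log2 fold change 1.90, SE 0.39, edgeR adjusted p = 0.00183) and 2 were lower.

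**Figure D5:**
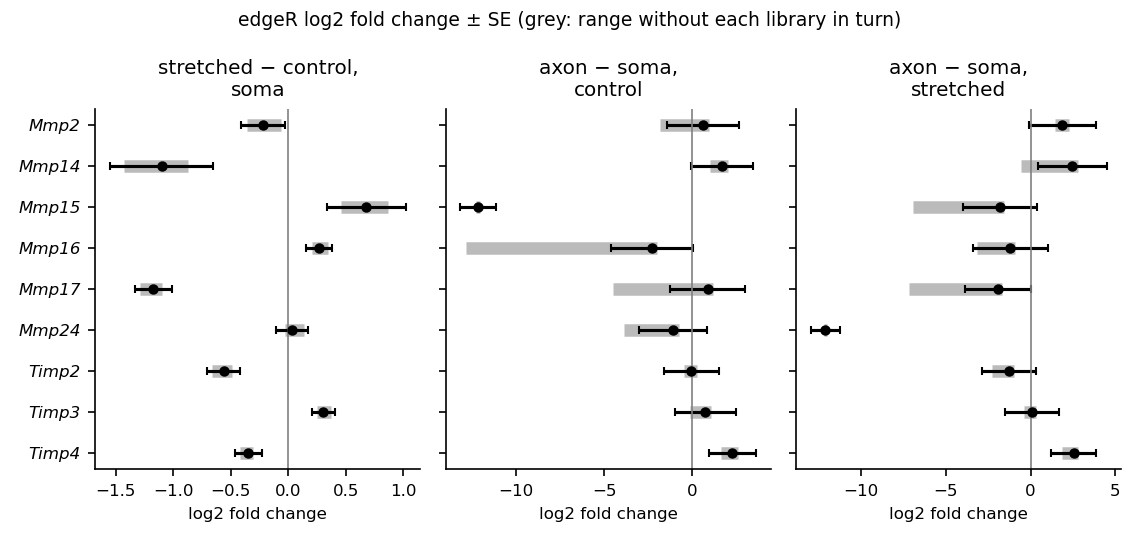
Log2 fold change (horizontal axes, different scales) of the 9 genes in the soma stretch comparison and in the axon against soma comparisons, as points ± SE from edgeR with the range over fits that each leave out 1 library in grey. Mmp15 in control and Mmp24 in stretched cultures lie near -12 because their axonal counts were all 0, so these fitted values are not a measure of size.

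Stretch was also tested within axons, where 5 of the 9 genes passed the filter on low counts. None of the 5 passed the test. The log2 fold changes were 1.45 (SE 2.99) for Mmp2, 0.02 (SE 2.73) for Mmp14, -1.57 (SE 2.49) for Timp2, -0.16 (SE 2.21) for Timp3 and 0.19 (SE 2.10) for Timp4, each with an edgeR adjusted p of 1.00. Over all 4947 genes tested edgeR called 0, or 0% of genes, with 46 at an unadjusted p under 0.05, while DESeq2 called 859. Mmp15, Mmp16, Mmp17 and Mmp24 were not tested because too few axonal libraries held counts. With SEs of more than 2 log2 units, a difference of the size seen for Mmp17 in somata was not detectable in axons.

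Cell type markers were also measured in the axonal libraries. Summed over 9 genes, astrocyte markers were at 4791 to 25995 CPM in control and 4970 to 20696 CPM in stretched axons, against 5276 to 14367 CPM over the soma libraries. The sum of 6 neuronal markers was 744 to 2948 and 1261 to 2504 CPM in axons, below the 4398 to 5260 CPM of somata. The sum of 7 mural and fibroblast markers was 102 to 848 CPM in control and 275 to 2336 CPM in stretched axons. Microglial markers were at 0 to 494 CPM and 0 to 736 CPM, with at most 6 of 9 present. Endothelial and oligodendrocyte precursor markers were at or near 0, with sums of at most 0.153 CPM. The part of glial or mural RNA in the axonal levels of the proteases and inhibitors was not tested.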

How the data were processed

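The labels' protocols describe poly(A) selection, cDNA amplification from low input, molecular identifiers and paired-end sequencing. The authors deposited whole-number read counts per Ensembl gene for each of 23 libraries, and 55141 of 55487 IDs had a symbol. The submitters' processing notes name fastp 0.20.1, STAR 2.7.08a, HTSeq 0.13.5, FastQC 0.11.9, MultiQC 1.12 and the build mm10. Annotation, strand setting and duplicate removal are not given in the sources used here. The rows of uncounted reads were kept out of totals (no feature 3.18 to 7.94%, ambiguous 4.37 to 5.94%, not unique 5.43 to 13.4%). Exon lengths, coordinates and coding sequences came from GENCODE vM21 (GRCm38).

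Each comparison of 2 groups was fitted with edgeR 4.0.16 in R 4.3.3 on its own libraries (filterByExpr, TMM, robust quasi-likelihood F test), with a Benjamini-Hochberg adjusted p threshold of 0.05. The SE is the log2 fold change divided by the square root of F. The code was checked on simulated data. Alternatives were other scalings, no filter, DESeq2 1.42.0, the replicate number as a block, 1 fit over all groups and leaving out each library. Eif2s3y level, an exon length offset (mgcv 1.9.3), leaving out both libraries numbered 4 and the overlap counts without control soma replicate 4 were added after seeing the data.

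The 9 genes and the lists were chosen with earlier results of these data known. From each list of 142 genes in all, up to 3 called genes with the largest fold change and a mean of at least 1 CPM are named. One gene that this rule picks is not reported here. The pattern search used log2(TMM-scaled CPM + 1).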

Additional observations from a re-analysis of the deposited data

Results flagged for a closer look

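In 9 of the 34 sets of libraries examined (1 gene in 1 group), the highest library lay far from the rest by Dixon's criterion. Of these, 8 were in axonal and 1 in soma libraries. In control axons they were Mmp2 in replicate 3 (171 CPM, next 26.8), Mmp16 in replicate 5 (111 CPM, next 0.0441), Mmp24 in replicate 5 (39.0 CPM, next 6.40) and Mmp17 in replicate 7 (237 CPM, next 4.02). In stretched axons they were Mmp14 in replicate 2 (255 CPM, next 15.4) and, in replicate 6, Mmp15 (73.1 CPM, next 1.62), Mmp16 (349 CPM, next 86.7) and Mmp17 (19.8 CPM, next 0.405). In control somata it was Timp3 in replicate 4 (185 CPM, next 145), the library that also lay among the stretched ones for most of the other genes. The rate of about 1 in 20 for this criterion holds for normally distributed values. Axonal sets held many libraries without counts, so the number flagged is not set against that rate. No cause was tested.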

How the results depend on the processing

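For stretch in somata the count of called genes was 3929, and it went to 0 in 1 fit over all 4 groups (262 genes at an unadjusted p under 0.05), to 0 within the 6 low Eif2s3y libraries (2739 at an unadjusted p under 0.05, 4637 called within the 6 high ones) and to 2243 with an exon length offset and the replicate block. Leaving out 1 library gave 2666 to 6072, the highest without control soma replicate 4. The split was 1757 higher and 2172 lower, and 2138 and 1867 with total counts only. Mmp17 kept its direction in 24 of 24 alternatives (-1.35 to -1.04). It was chosen on this contrast and its groups do not overlap, so this adds no support. Mmp15 ranged from -0.05 within the low to 1.23 within the high Eif2s3y libraries. Bsg turned to 0.020 with the offset and the block, where 1 of 10 ADAM genes was called higher in place of 5, and 2 other inhibitors were called higher and none lower. For stretch in axons, DESeq2 called 859 and the fit over 4 groups 3870 in place of 0, and leaving out 1 library gave 0 to 0. Such fits moved Mmp14 from -2.97 to 0.71, Timp3 from -0.66 to 0.70 and Timp4 from -0.57 to 0.87, and the replicate block moved Mmp14 to 2.84 and Timp3 to -14.13 (0.02 and -0.16 without it). For axon against soma the counts were 5196 in control and 4234 in stretched cultures, 10714 and 10931 without a filter, and 10206 and 10064 with DESeq2. Leaving out 1 library gave 4542 to 8151 (highest without control axon replicate 5) and 4174 to 6499 (highest without stretched axon replicate 8). In control cultures those fits ranged from -1.84 to 0.91 for Mmp2, -4.49 to 1.18 for Mmp17, -0.50 to 0.25 for Timp2 and -0.15 to 1.05 for Timp3, and in stretched cultures from -0.55 to 2.79 for Mmp14 and -0.37 to 0.32 for Timp3. Timp2 in control cultures was 0.16 with total counts only, 0.025 with RLE factors and 0.020 with DESeq2. Apart from fewer libraries or other genes tested, the causes were not tested.

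The replicate numbers in the titles were treated as shared numbers only. In somata 3 of 10 libraries with a partner correlated best with their own number, and same-number correlations were 0.0906 to 0.237. With the replicate block 3209 genes were called in somata, 0 in axons, 5287 for control and 7687 for stretched axon against soma. The block turned Mmp2, Mmp14, Mmp17 and Timp3 to -4.87, -4.47, -10.46 and -4.45 in control, and Mmp2, Mmp14 and Timp3 to -3.85, -3.03 and -1.12 in stretched cultures. With it Mmp15 and Mmp17 also came out lower in stretched axons, where each had counts in 2 of 6 libraries. Both passed the filter on low counts through somata, so no p is given and nothing is read from these calls. Thinning to the smallest total changed no detection.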
